A study of Mus musculus with 8 samples.

Results

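The genes described here encode the conjugating enzymes of phase II metabolism in mouse liver, apart from the mu-class glutathione transferases (Gstm genes), which were left out. They were chosen by symbol from the protein-coding genes of the GENCODE M21 annotation: the soluble glutathione transferases of classes alpha, kappa, omega, pi, theta and zeta (Gsta, Gstk, Gsto, Gstp, Gstt, Gstz), of which the kappa class is not cytosolic, the microsomal glutathione transferases (Mgst), the UDP-glycosyltransferases (Ugt1, Ugt2, Ugt3) and the sulfotransferases (Sult). This gave 60 of the 34547 genes to which the deposited values could be summed, with 18 glutathione transferases, 21 UDP-glycosyltransferases and 21 sulfotransferases. All 60 had a listed transcript, and 40 had enough reads to be tested among 13678 genes.

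Liver RNA was sequenced from C57BL/6J mice that overexpressed mouse Nudt7 (4 livers) or GFP, the control protein (4 livers). Nudt7 is a peroxisomal enzyme that hydrolyses coenzyme A and acyl-CoAs. Both groups had received 2.5e+11 particles of adeno-associated virus, a gene transfer vector, into the tail vein at 8 weeks of age in a volume of 150 µl, and both were fasted for 24 h before the liver was removed, 3 to 4 weeks after injection (age 11 to 12 weeks). The comparison asked what Nudt7 overexpression does to the liver transcriptome in the fasted state, without a fed group or uninjected mice. The promoter of the vector is not given in the sources used here, and the labels state neither the sex nor a pairing of the animals.

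Conjugation makes a lipophilic compound more soluble and marks it for export into bile or urine. Glutathione transferases attach the tripeptide glutathione to electrophiles, some also reduce lipid peroxides, and the cytosolic and microsomal forms are unrelated protein families that share this chemistry. UDP-glycosyltransferases in the endoplasmic reticulum attach a sugar, usually glucuronic acid, to bilirubin, steroids, bile acids and drugs, and cytosolic sulfotransferases transfer a sulfate group from the donor PAPS to phenols, steroids and bile acids. Hepatocytes are the main site of all of these reactions.

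Many of these genes are near copies of one another, and the sequences show where reads can and cannot be assigned to one gene. In the Ugt1a cluster on chromosome 1 each gene has a first exon of its own, which is spliced onto exons that all members use. The coding-strand sequences around that junction (GRCm38, plus strand) are given for 4 of them, with the last 45 bases of the gene's own first exon in lower case and the first 45 bases of the shared second exon (chr1:88215044-88215175) in capitals. They are shown because reads 3′ of the junction carry no information on which Ugt1a gene was transcribed.
Ugt1a1: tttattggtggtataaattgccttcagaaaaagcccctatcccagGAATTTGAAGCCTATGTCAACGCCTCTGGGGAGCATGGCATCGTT
Ugt1a5: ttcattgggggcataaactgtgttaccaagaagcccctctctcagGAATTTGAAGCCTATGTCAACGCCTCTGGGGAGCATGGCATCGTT
Ugt1a2: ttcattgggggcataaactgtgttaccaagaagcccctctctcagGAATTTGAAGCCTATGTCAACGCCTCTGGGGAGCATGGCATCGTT
Ugt1a9: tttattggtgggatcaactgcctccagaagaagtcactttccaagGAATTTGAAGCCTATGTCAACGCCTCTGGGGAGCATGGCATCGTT
The 45 bases on the right are the same in every line, and the shared exons made up 58.7% to 59.9% of the transcript in the 6 Ugt1a genes whose exons were examined. Ugt1a5 and Ugt1a2 also have identical bases on the left of the junction, so that they can be told apart only further upstream in their first exons.

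The pi-class pair Gstp1 and Gstp2 differ at single bases. Bases 1 to 120 of each coding sequence are given from GRCm38, with the positions that differ in capitals, because Gstp1 was the second most abundant gene of the set.
Gstp1: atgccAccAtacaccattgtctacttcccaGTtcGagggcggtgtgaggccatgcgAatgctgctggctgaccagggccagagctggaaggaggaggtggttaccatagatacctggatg
Gstp2: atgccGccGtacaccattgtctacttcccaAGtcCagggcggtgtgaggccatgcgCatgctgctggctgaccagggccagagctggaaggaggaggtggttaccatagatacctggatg
Over the coding length of 630 bases, 12 bases differed (98.1% identity), 6 of them in the stretch shown. Gsta1 and Gsta2 were 97.6% identical over their coding sequences, and Gstp1 and Gstp3 72.4%. In all, 30 of the 60 genes shared over 10% of their 31-base words with another gene. Fold changes of single genes in the Ugt1a cluster, the Ugt2b5 group, Gsta1 with Gsta2 and Gstp1 with Gstp2 carry that uncertainty. So do those of Ugt3a1 with Ugt3a2, Sult2a1 to Sult2a6, and Gstt3 with the gene Gm20441 outside the set.

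Induction of glutathione transferases is classically tied to the antioxidant response element, the site of the stress factor NRF2. Its core was searched in the form TGACNNNGC only, on both strands of RefSeq windows (GRCm38.p6). These ran from 250 bases before to 50 bases after the gene start and were found for 52 of the 60 genes. This form was present in 2 of the 52 (3.85%), against 14.0% of 27025 genes with such a window. Other forms of the core and sites farther away were not counted. The windows of Gstp1 and Gstp2, for example, hold TGAGTCAGC, which has G where the form searched has its first C. The 30-base stretches that hold both matches are given as read on the gene's strand, with the core in capitals, at chr1:21240454-21240483 and chr6:138140461-138140490, both on the plus strand.
Gsta3: aactcaggcaTGACATTGCatttttcttct
Mgst1: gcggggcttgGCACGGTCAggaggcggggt
In Gsta3 the core reads on the gene's own strand and in Mgst1 on the opposite strand. The other motifs searched were the TATA box TATAAA, in 12 of the 52 genes (23.1%, against 15.7% of all genes with a window), the CCAAT box CCAAT, in 17 (32.7%, against 41.1%), and the E-box CACGTG, in 0 (against 8.09%). A gene with several windows was counted if any of them held the motif. The motifs were searched independently and a window could hold several. A match is a description of letters in the window and says nothing about binding.

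Libraries held between 11187806 and 23640734 estimated reads. Nudt7 itself stood at 1301 to 3569 CPM (estimated reads per 1e+06, with library sizes scaled by TMM) in the livers labelled Nudt7 and 60.7 to 79.9 CPM in the GFP livers, with 3569 CPM in Nudt7 replicate 3 and at most 1599 CPM in the others. Transcripts of the Y chromosome were detected in all 8 libraries, and the 8 hepatocyte marker genes were all tested. Summed, these ran from 64370 to 97464 CPM in Nudt7 livers and from 78332 to 98632 CPM in GFP livers. Of the 8, 3 had an unadjusted edgeR p under 0.05 and the lower mean in Nudt7 livers, where 4.03% of all genes did, and 0 were called. Tat, a tyrosine-degrading enzyme, had a log2 fold change of −0.85 and Hnf4a −0.43, both with no overlap between groups. Of all genes 3% lay so with Nudt7 below. Cps1, a urea cycle enzyme, had −0.45 with overlap. Ttr (0.34), Cyp2e1 (0.16) and Serpina1a (0.08) had positive fold changes and Apoa1 (−0.20) and Alb (−0.08) negative ones, all with a larger p. Nudt7 replicate 3 stood apart: it lay at 63.1 on the first principal component (36.3% of the variance), where the others lay between −19.9 and 2.83, its short transcripts were 0.36 log2 units above the mean of all libraries and its long transcripts 0.32 below, and its red blood cell markers summed to 1814 CPM against 303 to 642 CPM in the others. The summed cholangiocyte markers, 6 of 8 of them tested, ran from 52.0 to 63.3 CPM in Nudt7 livers and from 36.9 to 48.8 CPM in GFP livers, with Tff2 and Cftr, which mark bile duct cells, at or near 0, and the summed sinusoidal endothelial markers, all 8 tested, ran from 424 to 464 CPM and from 473 to 532 CPM. The part of these differences in the results below was not tested, and in whole liver a change in RNA per cell cannot be told apart from a change in the number of cells of a type.

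Levels were compared between genes on the TPM scale (transcripts per 1e+06 transcripts, which takes out gene length). The 60 genes together made up 0.806% to 1.40% of all transcripts in a liver. Mgst1, a glutathione transferase and peroxidase of the endoplasmic reticulum and the outer mitochondrial membrane, stood far above the rest with a mean of 4342 ± 234 TPM in the GFP group (SD, n = 4) and made up 43.3% to 56.6% of the set's TPM in a liver. Gstp1, the main pi-class enzyme, followed with 1040.0 ± 309.7 TPM. Below it the means over all 8 livers were 427 TPM for Gstz1, 421 for Ugt2b5, 332 for Sult1a1, 315 for Ugt1a1, 308 for Gsta3, 234 for Sult2a8, 215 for Ugt2b36 and 211 for Ugt3a2. Those neighbours in the order lay within the spread between livers of each other: Gsta3 alone ran from 142 to 497 TPM. A second tier between 154 and 100.1 TPM held Sult1d1, Gstt2, Gsto1, Gstk1 and Gstt1, and 15 genes in all had a mean of at least 100 TPM.

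Ugt2b34, Ugt2a3, Ugt2b1, Ugt1a9, Ugt2b35, Ugt3a1, Ugt1a6b, Ugt1a6a, Gstt3, Ugt1a5, Gsta2, Sult1b1, Sult5a1 and Gsta4 had means from 89.6 down to 10.1 TPM. Gstp3, Mgst3, Gstp2, Ugt2b38, Mgst2, Ugt1a7c, Ugt1a2, Sult1e1 and Sult2a7 lay between 5.55 and 1.26 TPM, the last of the 38 genes at 1 TPM or more. Of the other 22, 8 had read estimates that rounded to 0 in all libraries (Gstt4, Sult1c1, Sult2a3, Sult2a5, Sult2a6, Sult3a2, Sult6b2 and Ugt2a1), so that at this depth they were not detectable. On average the glutathione transferases made up 0.751% of a liver's transcripts, the UDP-glycosyltransferases 0.176% and the sulfotransferases 0.0745%.

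**Figure D1:**
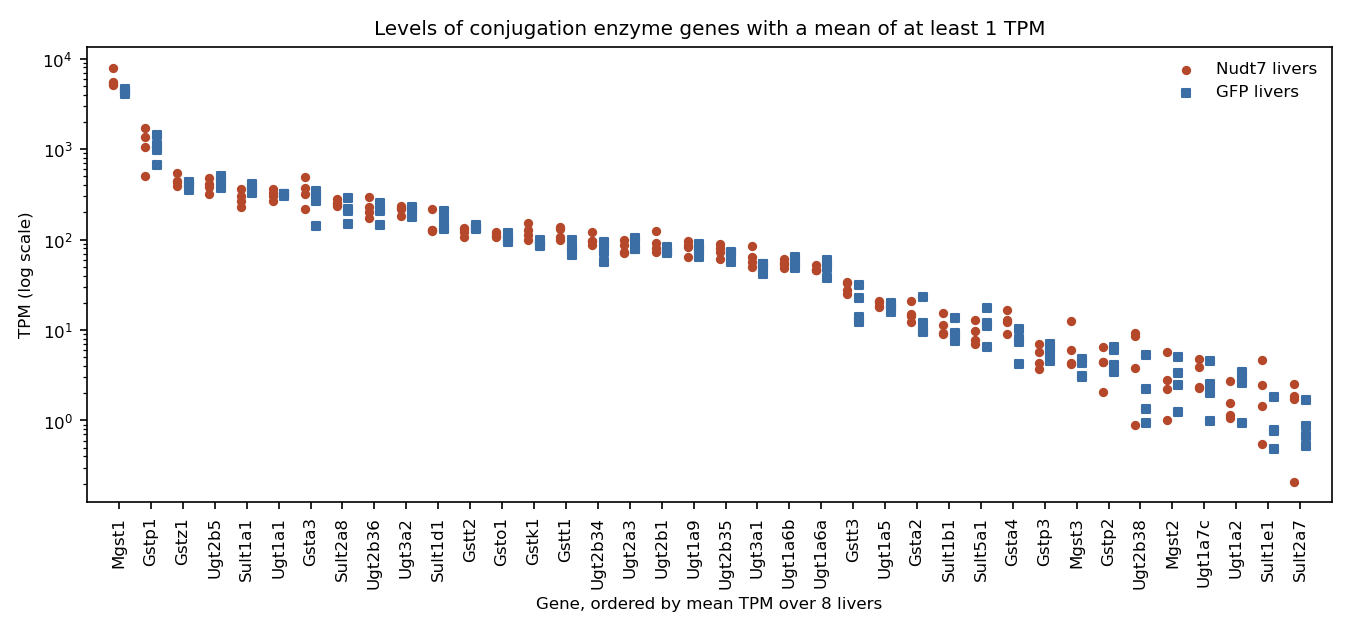
TPM (log scale) of the 38 genes with a mean of at least 1 TPM, ordered by that mean, with 1 point per liver (circles, Nudt7 livers; squares, GFP livers). Mgst1 lies above all others, and for most genes the points of both groups intermingle.

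No gene of the set changed at an adjusted p under 0.05. In edgeR's quasi-likelihood test with Benjamini-Hochberg adjustment over all genes, 0 of the 40 tested members were called, beside 16 of all 13678 genes (0.117%), and the smallest adjusted p was 0.277, of Gstt1. DESeq2 called 0 members and 153 genes (1.18% of those given an adjusted p), and gave Gstt1 an adjusted p of 0.0545. At an unadjusted p under 0.05 there were 10 members by edgeR, all with the higher mean in Nudt7 livers, where the background was 4.25% of genes higher and 4.03% lower. The 10 were Gsta4, Gstk1, Gstt1, Gstt3, Mgst1, Mgst3, Sult1e1, Ugt2b1, Ugt2b34 and Ugt3a1. DESeq2 also gave 10, all positive (background 4.92% higher and 3.63% lower), and limma-voom 8, all positive (3.96% and 4.23%).

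The sign of the fold change was positive for 30 of the 40, against 49.8% of all genes tested, and the median log2 fold change was 0.29 against −0.00 over all genes. By class, 13 of the 15 tested glutathione transferases were positive with a median of 0.40 and 6 at an unadjusted p under 0.05. Among the UDP-glycosyltransferases 14 of 19 were positive with a median of 0.24 and 3 at that p. Among the sulfotransferases 3 of 6 were positive with a median of 0.09 and 1 at that p. Short transcripts were high in Nudt7 replicate 3, and 21 of the 40 members belonged to the short class when all tested genes were divided by transcript length into 3 classes of equal size, 18 to the middle class and 1 to the long class. In the short class 66.2% of all genes had a positive fold change and 6.32% were higher at an unadjusted p under 0.05, and 17 of the 21 members there were positive and 7 higher at that p. In the middle class 12 of 18 members were positive, with a median of 0.16, against −0.00 over all its genes.

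**Figure D2:**
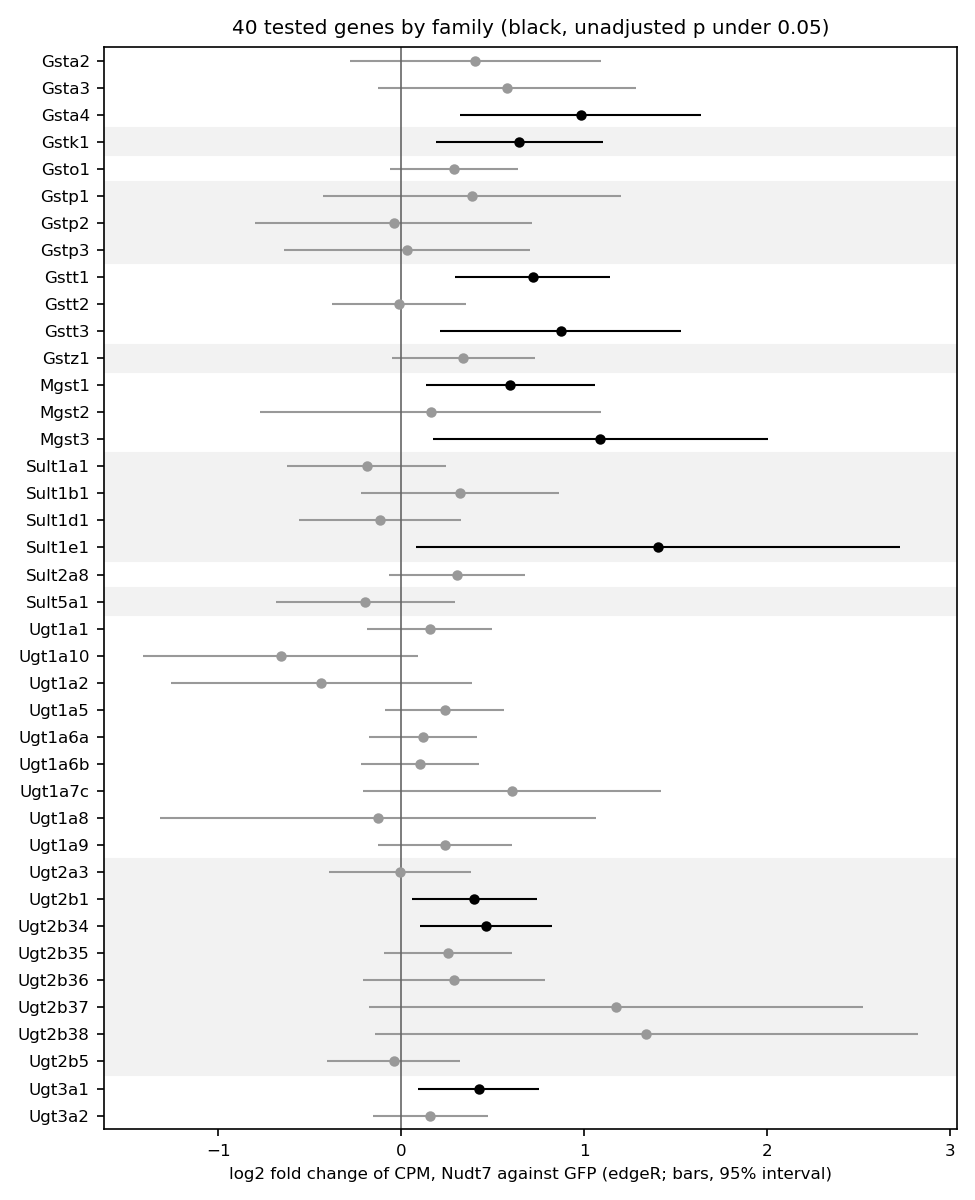
log2 fold change of CPM, Nudt7 against GFP livers (x axis), for the 40 tested genes in family order, with the 95% interval from the edgeR fit as a bar. The 10 genes in black have an unadjusted p under 0.05 and all lie to the right of 0, and no gene had an adjusted p under 0.05.

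Among the cytosolic glutathione transferases the smallest p was that of Gstt1, a theta-class enzyme that handles small halogenated compounds (chr10:75783813-75798584, minus strand). It stood at 64.3, 61.1, 117 and 80.1 CPM in Nudt7 replicates 1 to 4 and at 48.6, 46.7, 56.4 and 44.6 CPM in GFP replicates 1 to 4. No GFP liver reached the lowest Nudt7 liver, on the CPM or on the TPM scale, and replicate 3 was the highest. The log2 fold change was 0.72 (95% interval 0.29 to 1.14, edgeR quasi-likelihood unadjusted p = 0.00326, adjusted p = 0.277). Without Nudt7 replicate 3 it was 0.50 (adjusted p = 0.15). Of the 40 tested members 3 had groups that did not overlap on CPM, Gstt1, Gstk1 and Mgst1, all with Nudt7 above, and 0 had Nudt7 below, against 2.74% and 3% of all genes tested.

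Gstt3, a theta-class neighbour of Gstt1 in the same gene cluster, stood at 34.5, 25.7, 48.8 and 25.3 CPM in the Nudt7 livers and 11.4, 19.6, 29.5 and 13.3 CPM in the GFP livers. GFP replicate 3 lay above 2 of the Nudt7 livers, so that the groups overlapped. Its log2 fold change was 0.87 (95% interval 0.21 to 1.53, edgeR quasi-likelihood adjusted p = 0.464) and without Nudt7 replicate 3 it was 0.65, with an unadjusted p of 0.0841. Gstt3 shares 14.0% of its words with other genes, mostly with Gm20441 (12.8%). Gstt2, the most abundant theta-class gene, had 59.0, 69.1, 104 and 66.1 CPM in Nudt7 livers and 73.7, 75.8, 73.6 and 77.8 CPM in GFP livers. Replicate 3 was the highest of all 8 and the other 3 Nudt7 livers lay below every GFP liver. The fold change of Gstt2 was −0.01 (95% interval −0.38 to 0.35), its sign turned with the scaling (0.01 with DESeq2), and without replicate 3 it was −0.21 with an unadjusted p of 0.0487 (adjusted p = 0.599).

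The reads of Gstt2 were spread over 8 listed transcripts, none above 26.4% of the gene's TPM in GFP livers. The transcript with the most TPM in GFP livers, 632 bases long, averaged 22.5 ± 3.36 TPM with Nudt7 and 36.0 ± 5.96 TPM with GFP, and the next, 686 bases long, 25.2 ± 4.22 and 33.1 ± 0.169 TPM (± SD over 4 livers). In both, all 4 Nudt7 livers, replicate 3 included, had less than any GFP liver. The other Gstt2 transcripts overlapped between groups. Their means were higher with Nudt7 for those of 416 bases (15.6 against 7.22 TPM), 739 bases (11.1 against 7.43 TPM), 794 and 1449 bases. They were lower for those of 1370 and 2254 bases. Of 92 member transcripts at 1 TPM or more in a group, 4 had the groups apart with Nudt7 above and 3 with Nudt7 below, where 0.977% and 3.66% of all such transcripts did. How Salmon divides reads among overlapping transcripts carries an error that the files do not give.

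Gstk1, the kappa-class enzyme of mitochondria and peroxisomes, is a member that shares an organelle with Nudt7. It stood at 71.5, 63.3, 120.5 and 56.9 CPM in the Nudt7 livers and 53.8, 50.9, 46.3 and 48.8 CPM in the GFP livers. All 4 Nudt7 livers were above all GFP livers on the CPM scale, while on the TPM scale Nudt7 replicate 4 (97.9 TPM) and GFP replicate 1 (97.9 TPM) met. On the log2 scale the difference was 0.64 (95% interval 0.19 to 1.10, edgeR quasi-likelihood adjusted p = 0.429), and 0.37 without Nudt7 replicate 3. Gsta4, the alpha-class enzyme that clears the lipid peroxidation product hydroxynonenal, stood at 7.96, 7.68, 14.5 and 5.93 CPM against 4.57, 4.89, 6.19 and 2.83 CPM. Only GFP replicate 3 reached into the range of the Nudt7 livers, above Nudt7 replicate 4. Its fold change was 0.98 (95% interval 0.32 to 1.64, adjusted p = 0.375), and 0.67 without replicate 3.

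Gsta3, the alpha-class enzyme that detoxifies aflatoxin epoxide in mouse liver, stood at 293, 175, 521 and 251 CPM in Nudt7 livers and 205, 239.8, 266 and 121 CPM in GFP livers. The groups overlapped, with GFP replicate 4 the lowest and Nudt7 replicate 3 the highest. edgeR gave a log2 fold change of 0.58 (95% interval −0.13 to 1.28, edgeR quasi-likelihood adjusted p = 0.664) and 0.22 without replicate 3. Gstp1, a short transcript of 757 bases, varied widely between livers of one group, with 587, 457, 1033 and 229.6 CPM in Nudt7 livers and 413, 465, 576 and 309.7 CPM in GFP livers. Nudt7 livers were both the highest and the lowest of the 8. Its fold change of 0.39 (95% interval −0.43 to 1.20, adjusted p = 0.778) turned to −0.04 without Nudt7 replicate 3.

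The remaining abundant enzymes of this class gave intervals that included 0. Gstz1, which isomerises maleylacetoacetate in tyrosine breakdown, stood at 389.7, 376, 644 and 387 CPM against 348, 379.9, 354 and 339 CPM, with replicate 3 apart and the other Nudt7 livers between 376 and 389.7 CPM (log2 fold change 0.34, 95% interval −0.05 to 0.73). Gsto1, an omega-class thiol transferase, stood at 76.6, 73.7, 119.6 and 82.8 CPM against 66.0, 71.1, 78.5 and 73.2 CPM, again with replicate 3 the highest (0.29, −0.06 to 0.64). Gsta2, which reads can confuse with Gsta1, had a fold change of 0.40 (−0.28 to 1.09), and the sum of Gsta1 and Gsta2 one of 0.52 (−0.21 to 1.24). Gstp2 (−0.04) and Gstp3 (0.03) lay near 0.

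The microsomal enzymes showed the largest difference in amount. Mgst1 (chr6:138140316-138156755, plus strand) stood at 2024, 1993, 3613 and 1832 CPM in Nudt7 livers and 1553, 1639, 1474 and 1601 CPM in GFP livers. The lowest Nudt7 liver lay above the highest GFP liver, and replicate 3 lay far above the other 3 Nudt7 livers. On the TPM scale it was at 5581, 5209, 7944 and 5146 against 4359.7, 4649.8, 4089 and 4270.4 TPM, again without overlap. The log2 fold change was 0.59 (95% interval 0.13 to 1.06, edgeR quasi-likelihood adjusted p = 0.47), 0.33 without replicate 3 (adjusted p = 0.369) and 0.37 with the length trend of each library removed. Its reads were divided among 8 listed transcripts, the first of them, 742 bases long, with 37.5% of the gene's TPM in Nudt7 livers and 40.5% in GFP livers.

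Mgst3, a membrane enzyme with peroxidase and leukotriene synthase activity, was low, at 2.65, 3.80, 10.5 and 2.80 CPM in Nudt7 livers and 1.94, 2.63, 2.76 and 2.0 CPM in GFP livers. Replicate 3 was more than any other liver held, and Nudt7 replicate 1 lay below GFP replicate 3. The fold change of 1.09 (95% interval 0.17 to 2.0, edgeR quasi-likelihood adjusted p = 0.521) came to 0.42 without replicate 3, with an unadjusted p of 0.106. Mgst2, the leukotriene-forming relative, had 0.412 to 1.85 and 0.623 to 1.39 CPM and a fold change of 0.16 (−0.77 to 1.09).

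**Figure D3:**
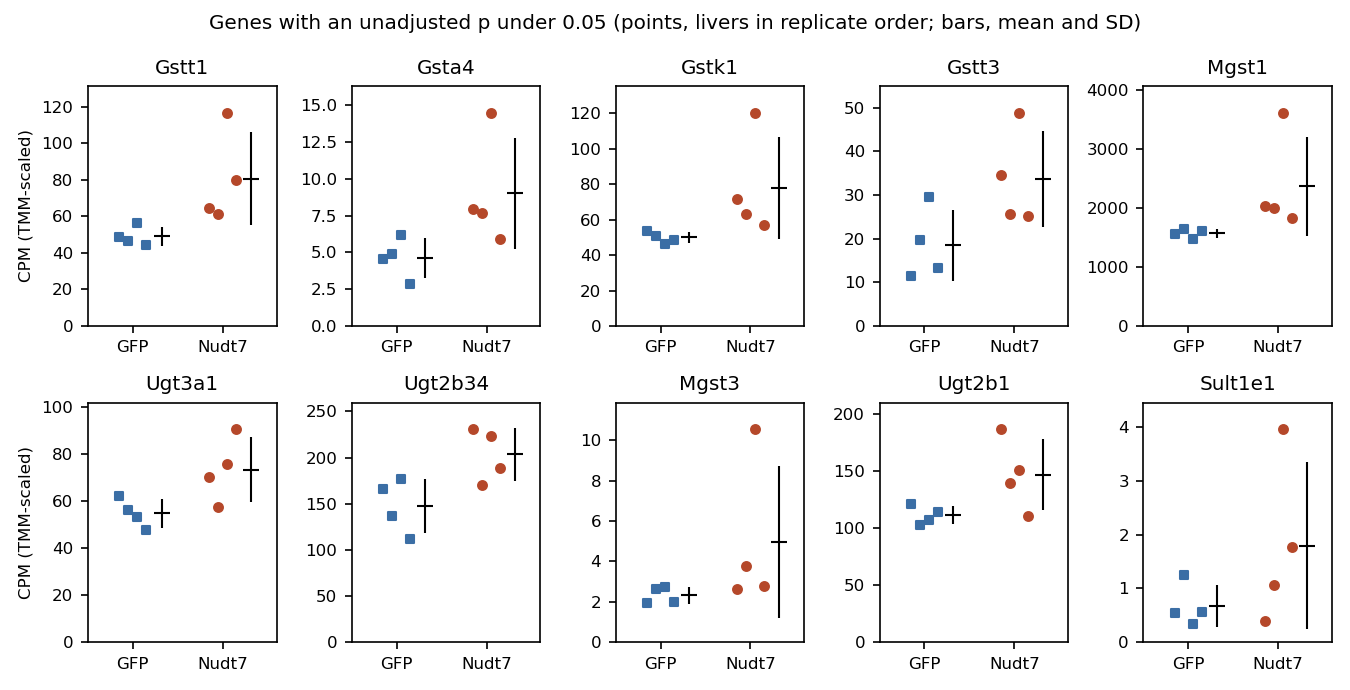
CPM of the 10 genes with an unadjusted p under 0.05, by liver (squares, GFP; circles, Nudt7; each axis starts at 0), with the mean and SD of each group at the side. Gstt1, Gstk1 and Mgst1 have no overlap between groups, and Nudt7 replicate 3, plotted between replicates 2 and 4, is the highest liver in all 10 except Ugt2b1, Ugt2b34 and Ugt3a1.

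The UDP-glycosyltransferases of the Ugt1a cluster gave a narrow interval around a small difference. Since their transcripts share most bases, the 9 genes were first summed. The cluster stood at 731, 739.7, 1033 and 819 CPM in Nudt7 livers and 737, 746, 755 and 738 CPM in GFP livers. The GFP livers lay close together, Nudt7 replicate 3 was the highest, and the groups overlapped. Fitted over all livers, the log2 fold change was 0.16 (95% interval −0.15 to 0.47, edgeR quasi-likelihood adjusted p = 0.764). By gene, Ugt1a1, the bilirubin-conjugating enzyme, stood at 381, 439, 615 and 520.5 CPM against 418, 443, 428 and 469 CPM, with replicates 1 and 2 of the Nudt7 livers inside or below the GFP range (0.15, −0.19 to 0.49).

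Ugt1a6a and Ugt1a6b, which take planar phenols, had fold changes of 0.12 (−0.18 to 0.41) and 0.10 (−0.22 to 0.42). Ugt1a9, a phenol-conjugating form, had 0.24 (−0.13 to 0.60) and Ugt1a5 0.24 (−0.09 to 0.56). The other 4 were low, with wide intervals: 0.60 for Ugt1a7c, −0.13 for Ugt1a8, −0.44 for Ugt1a2 and −0.66 for Ugt1a10. Ugt1a10 stood at 0.465, 0.665, 0.440 and 0.789 TPM with Nudt7 and 1.03, 1.55, 1.02 and 1.41 TPM with GFP. Alone among the tested members, its Nudt7 livers were all below the GFP livers on the TPM scale. The share of all genes so placed was not counted on that scale, where the median log2 fold change of all genes was −0.11 (limma on log2(TPM + 0.5)). On the CPM scale the groups of Ugt1a10 overlapped (95% interval −1.41 to 0.09, edgeR quasi-likelihood adjusted p = 0.646). All 9 share words with the rest of the cluster, 53.0% to 84.2% of them.

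In the Ugt2 cluster on chromosome 5, whose enzymes conjugate steroids and bile acids, Ugt2b34 stood at 231, 170.4, 224 and 189 CPM in Nudt7 livers and 166, 137, 176 and 112 CPM in GFP livers. Nudt7 replicate 2 lay below GFP replicate 3, the other Nudt7 livers lay above every GFP liver, and replicate 1 was the highest. On the log2 scale the difference was 0.46 (95% interval 0.10 to 0.82, edgeR quasi-likelihood adjusted p = 0.471), and 0.42 without replicate 3. Ugt2b1 stood at 187, 139, 151 and 111 CPM against 121, 103, 107 and 114 CPM. Replicate 4 of the Nudt7 livers lay inside the GFP range and the other 3 above it. Its fold change was 0.40 (95% interval 0.06 to 0.74, adjusted p = 0.526) with replicate 3 and 0.40 without. These transcripts belong to the middle class by length and share 0.826% (Ugt2b1) and 2.95% (Ugt2b34) of their words with other genes.

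Ugt2b5, the most abundant gene of the cluster, had 502, 411, 541 and 335 CPM against 489.9, 428, 517 and 408 CPM, and the ranges overlapped almost wholly. Its fold change of −0.04 (−0.40 to 0.32) turned sign when single livers were left out (at most 0.07). Ugt2b37 and Ugt2b38 resemble Ugt2b5 in sequence and had large but imprecise fold changes. Ugt2b38 stood at 9.92, 9.36, 5.11 and 0.977 CPM against 2.35, 1.39, 5.52 and 1.04 CPM (1.34, −0.15 to 2.82) and Ugt2b37 at 0.859, 1.59, 2.47 and 0.130 CPM against 0.415, 0.730, 0.502 and 0.522 CPM (1.17, −0.18 to 2.52). In each the highest and the lowest liver were both Nudt7 livers. Summed with Ugt2b5 and Ugt2b36, the group had a fold change of 0.07 (−0.32 to 0.47). Ugt2b36 (0.29), Ugt2b35 (0.25) and Ugt2a3 (−0.01) had intervals that included 0.

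Ugt3a1, whose enzyme uses N-acetylglucosamine in place of glucuronic acid, stood at 70.0, 57.4, 75.7 and 90.6 CPM in Nudt7 livers and 62.4, 56.3, 53.3 and 47.6 CPM in GFP livers. Nudt7 replicate 2 lay in the GFP range and replicate 4 was the highest. The log2 fold change was 0.42 (95% interval 0.09 to 0.75, edgeR quasi-likelihood adjusted p = 0.471) and 0.42 without replicate 3. Its neighbour Ugt3a2, the more abundant of the pair, stood at 309, 243, 372 and 296 CPM against 274, 295, 275 and 251 CPM with a fold change of 0.16 (−0.16 to 0.47). Nudt7 replicate 2 had less Ugt3a2 than any GFP liver and replicate 3 the most of all 8. Ugt3a1 shares 16.5% of its words with Ugt3a2, and the sum of both had a fold change of 0.20 (−0.10 to 0.51, edgeR quasi-likelihood adjusted p = 0.707).

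The sulfotransferases gave no common direction. Sult1a1, the main phenol sulfotransferase, stood at 195, 229, 362 and 334 CPM in Nudt7 livers and 340.1, 300.0, 269 and 367 CPM in GFP livers. Nudt7 replicates 1 and 2 lay below every GFP liver, and replicates 3 and 4 inside the GFP range. Its log2 fold change was −0.19 (95% interval −0.63 to 0.25, edgeR quasi-likelihood adjusted p = 0.794), and −0.38 on the log2(TPM + 0.5) scale, where the median of all genes was −0.11. Sult1d1, which sulfates catecholamines, stood at 139, 141, 234 and 143 CPM against 148, 227, 188 and 151 CPM (−0.12, −0.56 to 0.33). Replicate 3 was the highest of all 8 livers and the other 3 Nudt7 livers were below every GFP liver. Without replicate 3 its fold change was −0.32 with an unadjusted p of 0.0397 (adjusted p = 0.565). Sult1d1 was named after its values were seen.

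Sult1e1, the estrogen sulfotransferase, had the largest fold change of the 40 on very few reads. It stood at 0.390, 1.06, 3.95 and 1.76 CPM in Nudt7 livers and 0.554, 1.24, 0.335 and 0.565 CPM in GFP livers. Nudt7 replicate 3 was the highest and replicate 1 the second lowest, so that the groups overlapped. Fitted over all livers, the log2 fold change was 1.40 (95% interval 0.08 to 2.72, edgeR quasi-likelihood adjusted p = 0.581), and 0.70 without replicate 3 (unadjusted p = 0.203). Sult2a8, a bile acid sulfotransferase, stood at 289, 241, 305 and 256 CPM against 281, 222, 221 and 159 CPM, with GFP replicate 4 the lowest and replicate 1 inside the Nudt7 range (0.30, −0.07 to 0.68). Its relatives Sult2a1 to Sult2a6 summed to at most 0.251 CPM in a liver. Sult5a1, whose substrates are poorly known, stood at 11.6, 8.30, 11.6 and 7.04 CPM against 11.1, 12.6, 13.4 and 7.35 CPM (−0.20, −0.69 to 0.29), and Sult1b1, which acts on thyroid hormones and phenols, had a fold change of 0.32 (−0.22 to 0.86).

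Of the 20 members that were not tested, 15 were sulfotransferases. Sult2a7 was the one with a mean above 1 TPM, at 1.73, 0.211, 1.86 and 2.55 TPM with Nudt7 and 0.527, 1.70, 0.871 and 0.672 TPM with GFP. Gsta1 followed, with 0 to 3.33 and 0 to 0.897 TPM, and 92.9% of its words are shared with other genes. The rest lay under that level: Sult1c2 at 0.335, Gsto2 at 0.228, Sult6b1 at 0.152, Sult2b1 at 0.146, Sult2a1 at 0.139, Sult2a2 at 0.114 and Ugt2a2 at 0.107 TPM on average, and Sult3a1, Sult2a4 and Sult4a1 below 0.05 TPM.

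Summed by family on the TPM scale, Mgst was the only family whose groups did not overlap, with 5979.8 ± 1332 TPM in the Nudt7 group and 4349 ± 235 TPM in the GFP group (± SD over 4 livers), a ratio of 1.37, nearly all of it Mgst1. The Gsta sum was 383 ± 123 and 285 ± 94.6 TPM, the Gstk1 level 123 ± 24.0 and 90.5 ± 6.24, and the Gstp sum 1169 ± 515 and 1051 ± 311. These overlapped between groups. The Gstt sum was 273 ± 28.4 against 238 ± 23.6 TPM, with Gstt2, its largest member, at 124 ± 12.3 against 136 ± 5.87 TPM. For all genes the median log2 fold change was −0.11 on log2(TPM + 0.5) with limma, against −0.00 in the edgeR fit of counts. The UDP-glycosyltransferase sums were nearly level on the TPM scale. They were 527 ± 24.4 against 522 ± 26.5 TPM for Ugt1, 982 ± 151 against 964 ± 136 for Ugt2 and 277 ± 32.3 against 257 ± 25.6 for Ugt3. The Sult1 sum was 453 ± 82.2 against 545 ± 33.7 TPM and the Sult2 sum 255 ± 19.6 against 216 ± 58.0 TPM.

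**Figure D4:**
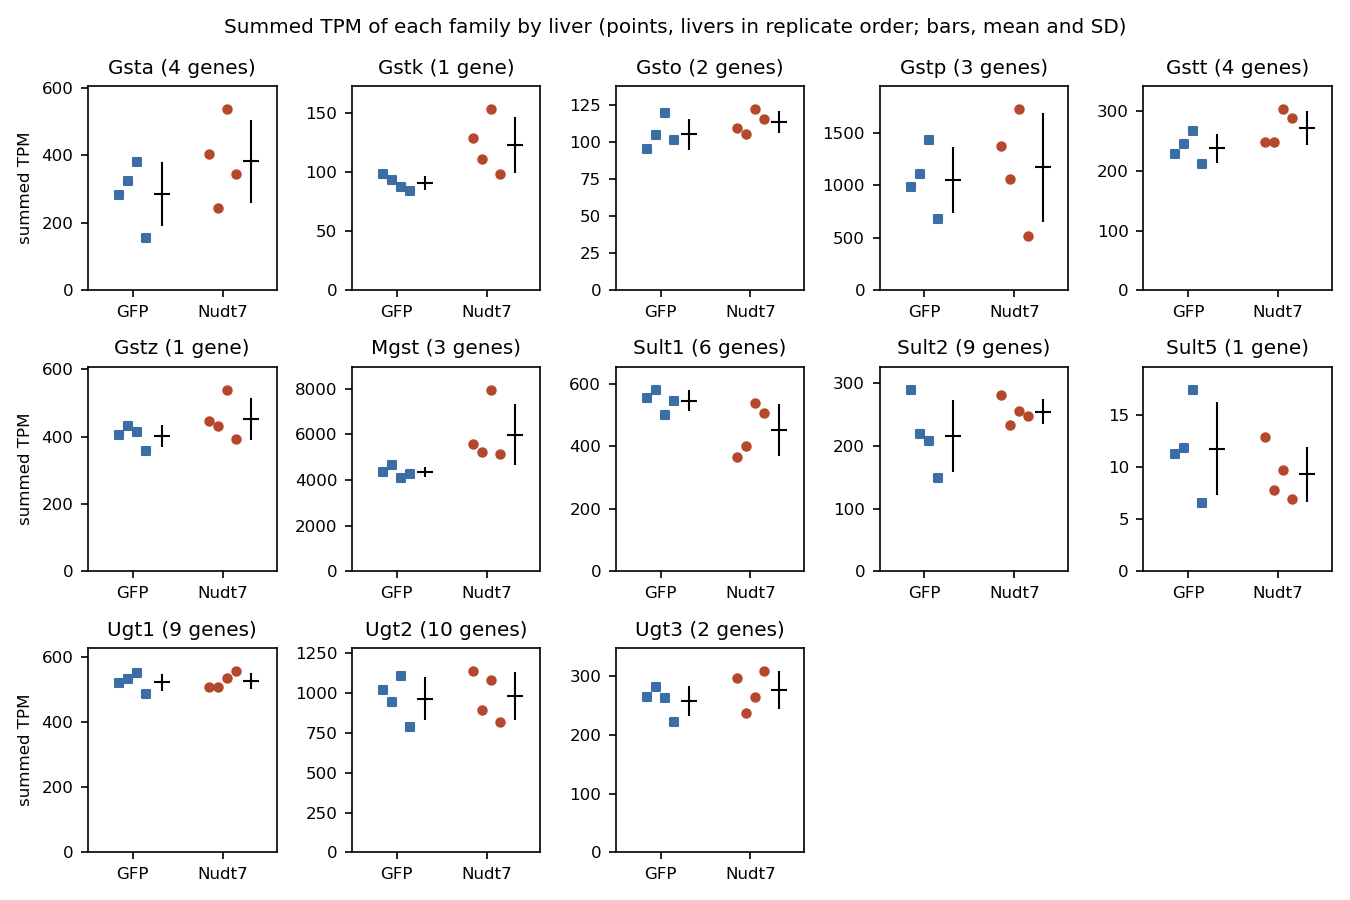
Summed TPM of each family with a GFP mean of at least 1 TPM, by liver (squares, GFP; circles, Nudt7; each axis starts at 0), with the mean and SD of each group at the side. The groups are apart for Mgst, and the sums of Ugt1, Ugt2 and Ugt3 overlap.

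With Nudt7 replicate 3 left out, 0 members were called by edgeR, beside 13 of 13940 genes (0.0933%). At an unadjusted p under 0.05 there were 9 members, 7 higher (Gsta4, Gstk1, Gstt1, Mgst1, Ugt2b1, Ugt2b34 and Ugt3a1) and 2 lower (Gstt2 and Sult1d1), against 4.3% and 3.98% of genes. The members' median log2 fold change was 0.12, with 28 of 40 positive, against 50.9% of all genes. With the trend of each library in transcript length removed, 0 members were called, beside 0.197% of genes. The same 10 members as in the full comparison had an unadjusted p under 0.05, against 5.28% of genes higher and 4.5% lower, and 29 of 40 were positive, against 51.1%, with a median of 0.23. The fold changes of Ugt2b1, Ugt2b34, Ugt3a1 and Ugt2b38 moved little between these fits, while those of Sult1e1, Ugt2b37, Mgst3, Gstp1 and Gsta3 moved farthest toward 0 without replicate 3. The part of replicate 3's length trend in the members' fold changes was not tested beyond these fits.

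**Figure D5:**
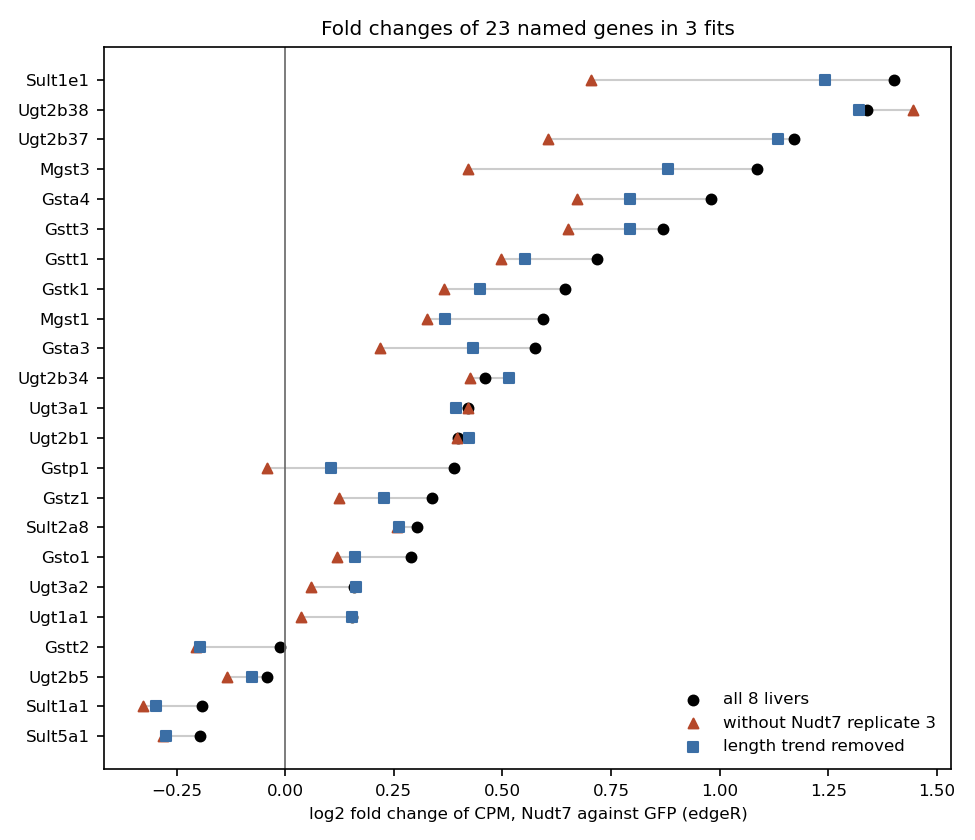
log2 fold change of CPM, Nudt7 against GFP livers (x axis), of the 23 genes given in full, from the fit on all 8 livers (circles), without Nudt7 replicate 3 (triangles) and with the length trend removed (squares). Gstp1 crosses 0 without replicate 3, and Ugt2b1, Ugt2b34 and Ugt3a1 stay near the same value in all 3 fits.

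Genes of the supply of the donors of these reactions, and some of breakdown or export, were counted beside them. Over all genes tested 49.8% were positive, 4.25% higher and 4.03% lower at an unadjusted p under 0.05. Of 15 tested genes of glutathione supply, breakdown and export 7 were positive and 8 negative, with a median of −0.04 and 0 called. Ggt5, Ggt6, Chac1 and Chac2 among them act in breakdown and Abcc1, Abcc2 and Abcc4 in export, so these counts are not of supply alone. At an unadjusted p under 0.05 there was 1, Ggt6, of the family that degrades extracellular glutathione, at 17.9 ± 2.67 against 13.0 ± 2.84 CPM. Gclc, the catalytic subunit of the rate-limiting enzyme of glutathione synthesis, had a log2 fold change of 0.30 (−0.01 to 0.60). Of 8 tested genes of UDP-glucuronate supply and glucuronide export, 7 were positive, with a median of 0.19, 0 called by edgeR and 3 at that p, all higher. Abcc3, the transporter that carries glucuronides from hepatocytes into blood, stood at 357, 398, 480.5 and 492 CPM in Nudt7 livers and 275, 325, 327 and 294 CPM in GFP livers. Its groups did not overlap, and its fold change of 0.50 (0.19 to 0.81) had an edgeR quasi-likelihood adjusted p of 0.325, while the DESeq2 adjusted p was 0.0313. Ugp2, which makes UDP-glucose, had 0.50 (0.12 to 0.88).

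Of 10 tested genes of PAPS and sulfate supply 8 were positive, with a median of 0.09, 0 called and 1 at an unadjusted p under 0.05. That was Suox, the sulfite oxidase that makes sulfate, at 121 ± 10.4 against 91.6 ± 8.45 CPM without overlap (0.41 (0.14 to 0.67), edgeR quasi-likelihood adjusted p = 0.361), and Papss1, a PAPS synthase, had 0.26 (−0.15 to 0.67). Among 16 tested genes of other conjugating and hydrolysing enzymes (methyl-, acetyl- and amino acid transferases, epoxide hydrolases and the quinone reductase Nqo1) 14 were positive, against 49.8% of all genes, with a median of 0.39. At that p there were 8, all higher, where 4.25% of all genes were. In each of these 8 Nudt7 replicate 3 was the highest liver. Counts without that liver or by transcript length are not given for this list. None of the 16 was called by edgeR and 2 were by DESeq2, which called 1.18% of all genes given an adjusted p. Gamt, which makes creatine, stood at 20.8, 16.2, 38.1 and 21.5 CPM in Nudt7 livers and 6.58, 9.86, 14.5 and 8.91 CPM in GFP livers. No GFP liver reached the lowest Nudt7 liver (1.29 (0.66 to 1.91), edgeR adjusted p = 0.148, DESeq2 adjusted p = 0.00322). Inmt, an indole methyltransferase, stood at 30.1, 17.8, 57.7 and 29.5 against 14.1, 11.0, 20.8 and 9.56 CPM with overlap (1.29 (0.54 to 2.04), edgeR adjusted p = 0.277, DESeq2 adjusted p = 0.0145).

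Of 19 tested transcription factors that act on conjugation genes 8 were positive and 11 negative, with a median of −0.04, 0 called and 1 at an unadjusted p under 0.05. Hnf4a, a nuclear receptor of hepatocyte identity, stood at 651, 694, 609 and 714 CPM in Nudt7 livers and 919, 774, 844 and 1066 CPM in GFP livers. Every Nudt7 liver was below every GFP liver, and replicate 3 was the lowest (−0.43 (−0.74 to −0.13), edgeR quasi-likelihood adjusted p = 0.422). Foxa3, a forkhead factor, had −0.31 (−0.63 to 0.01). These 5 lists were chosen with earlier results of these libraries known, and their counts are given as a description.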

How the data were processed

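Polyadenylated RNA of 8 mouse livers was measured, 4 per group, from stranded mRNA libraries. Per the submitters' processing notes, FastQC, Salmon and DESeq2 were used with genome build GRCm38. For Salmon, its version, index and settings were not given in the sources used. The deposited files give each transcript's estimated counts, which are not normalized, its TPM and its effective length in bases, per the file headers. The deposited TPM values sum to 1e+06 per library.

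Of 109282 transcripts, 107987 (98.8%) were named from GENCODE M21 by identifier. The others, with 0.552% to 1.06% of a library's reads, were dropped. Gene values are sums of the estimated counts, rounded. The main test was edgeR 4.0.16 (quasi-likelihood, robust, TMM scaling, filterByExpr by group), two-sided, with Benjamini-Hochberg adjustment over 13678 genes and a threshold of 0.05. CPM rests on library sizes after TMM. The alternatives used DESeq2 1.42.0, limma 3.58.1 (voom, voom with sample weights, and log2(TPM + 0.5)), other scalings and filters, length corrections, summed groups of similar genes and each library left out in turn. Depth was 11187806 to 23640734 reads, and the intervals come from the fit over livers.

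The members and lists were chosen with earlier results of these data known, so no test was run on a list and no p was adjusted over one. Full values are given for the gene with the highest mean TPM of each family with at least 1 TPM, for members with an unadjusted p under 0.05, and for the 3 members with the largest fold change. Of each supply, factor or other enzyme list the 2 genes with the smallest p are named. Some of these have values by liver, and the rest only group means or the fold change with its interval. The procedure was tested on simulated data for the Nudt7 against GFP comparison (3 runs of 13492 to 13678 genes, 200 of them altered). edgeR found 16% of the genes altered 1.5-fold, 65.3% of those altered 2-fold, 95.3% of those altered 4-fold and 96.7% of those altered 8-fold, and 7.49% of its calls were false. The labels do not say whether the mice shared a litter, cage or day. Each p-value sets the group difference against the spread between these livers.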

Additional observations from a re-analysis of the deposited data

Results flagged for a closer look

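A liver far from the other 3 of its group was looked for in the 23 genes given in full, in 46 groups of 4. By chance such a gap is found in about 1 group in 20. It was found 3 times, each time in Nudt7 replicate 3 and above the rest. Mgst1 stood at 3613 CPM there and between 1832 and 2024 CPM in the other Nudt7 livers. Gstz1 stood at 644 CPM against 376 to 389.7 CPM, and Mgst3 at 10.5 CPM against 2.65 to 3.80 CPM. All 3 belong to the class of genes with short transcripts.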

How the results depend on the processing

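Under all 20 other settings, 8 of which left out 1 library, 0 members were called. The smallest adjusted p of a member ranged from 0.0545 (DESeq2, Gstt1) to 0.711 (without GFP replicate 2, Gstt1). Over all genes the count of calls, 16 with edgeR, was 153 with DESeq2, 27 with no filter on low counts, 2 with limma on log2(TPM + 0.5), 10 with limma-voom, 100 with sample weights and 27 with the length trend removed. It ran from 2 to 16 with 1 library left out: 2 without Nudt7 replicate 1, 2 without GFP replicate 4, 3 without GFP replicate 2, 5 without Nudt7 replicate 4, 5 without GFP replicate 1 and 9 without Nudt7 replicate 2. In the supply, factor and other enzyme lists DESeq2 called 3 genes and sample weights 1, where edgeR called 0. On summed CPM in place of summed TPM the log2 ratio of the family means was 0.29 for Gsto, 0.40 for Gstt, 0.34 for Gstz and 0.16 for Ugt1, against 0.11, 0.20, 0.17 and 0.01. It was also higher on CPM, by less than the spread between livers, for Gstp (0.38 against 0.15), Gsta (0.58 against 0.42), Gstk (0.64 against 0.44), Mgst (0.60 against 0.46), Ugt2 (0.17 against 0.03), Ugt3 (0.20 against 0.11), Sult1 (−0.15 against −0.27), Sult2 (0.30 against 0.24) and Sult5 (−0.20 against −0.34). The log2 fold change of Gstp1 turned to −0.055 with sample weights and ranged from −0.042 (without Nudt7 replicate 3) to 0.65 (without Nudt7 replicate 4) with 1 library left out. That of Gstt2, −0.01, turned to 0.0059 with DESeq2, 0.0013 with RLE scaling, 0.019 with the effective length offset and ranged from −0.21 to 0.10 with 1 library left out, and that of Ugt2b5 from −0.14 to 0.074. The cause was not tested. The group of settings with genes of similar sequence summed after measuring their shared words was chosen after seeing the data. With 4 livers per group, 1.5-fold changes were recovered in 16% of simulated cases. In such data a change of the size seen in most members would often not be called. The simulated counts were drawn gene by gene, with no liver set apart by transcript length as Nudt7 replicate 3 was. How far that alters the recovery was not tested. No paired analysis was possible because the labels give animal numbers with no pairing across the groups.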
